A study of Mus musculus with 6 samples.

Results

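The genes described are 10 genes of transferrin and iron handling, of 55401 genes in a count table of bulk RNA-seq from cultured mouse Schwann cells (SCs). They are the carrier *Trf*, the receptor *Tfrc*, the endosomal reductase *Steap3*, the iron transporter *Slc11a2*, the ferritin subunits *Fth1* and *Ftl1*, the exporter *Slc40a1*, the ferroxidases *Cp* and *Heph*, and the heme oxygenase *Hmox1*. The set was chosen from the counts of these same cultures, because *Trf* was lower in the knockout cultures. The comparison of genotypes is therefore a description of these 10 genes, and no p-value is given for them.

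The libraries came from 3 WT cultures and 3 cultures of *Plxnb1-/-* cells. Dorsal root ganglia of adult mice were the source of the SCs, which were kept in medium with 4% ascorbic acid, 10% FBS, 2 µM forskolin, 10 nM neuregulin, and 1% nonessential amino acids. The stated purity is above 80% after Thy1-based depletion of fibroblasts on magnets, at passage 3, 4, or 5. The *Plxnb1* allele carries a gene trap cassette (transmembrane domain, lacZ, and neo) in every cell of the animal, on a C57BL/6 background, and Plexin-B1 is a receptor for semaphorins. The labels call the controls WT, but heterozygous littermates also served as controls in the study, and whether any library called WT here is heterozygous was not given in the sources used here. Age beyond adult and sex were not given in the sources used here. Total counts were 63883476, 59252048, and 70967747 in WT replicates 1, 2, and 3 and 77280964, 72461964, and 69385956 in *Plxnb1-/-* replicates 1, 2, and 3. Nothing states that the cultures came from separate animals, so p-values measure the spread between these samples, which may be technical. Levels are CPM, that is, counts scaled to library size with TMM factors. A value after ± is the SD of the 3 cultures of a genotype, SE is the standard error of a log2 fold change, and triplets of values follow the order of replicates 1, 2, and 3.

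Cells take up most of their iron bound to transferrin, which the transferrin receptor carries into endosomes. There a reductase converts ferric to ferrous iron, and a transporter moves it into the cytosol. Iron that is not used is stored in ferritin or leaves through ferroportin, and ferroxidases then return it to the ferric form that transferrin binds. Heme oxygenase frees iron from heme. In nervous tissue, transferrin is known as a product of myelinating glia as well as of the liver.

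The targeted gene was read first. *Plxnb1* (chromosome 9 of GRCm38, 109095389 to 109119917, plus strand) stood at 61.8, 45.4, and 96.4 CPM in WT against 13.1, 16.6, and 18.6 CPM in *Plxnb1-/-* cultures. Every *Plxnb1-/-* culture was below every WT culture, as the labels require, and a remainder of its reads was still counted. Its log2 fold change was −2.08 (SE 0.25, adjusted p = 0.0449 by the quasi-likelihood test of edgeR).

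All 10 iron genes passed the filter on low counts. In *Plxnb1-/-* cultures *Trf* and *Slc40a1* were lower and *Cp* and *Heph* higher than in WT, with no overlap between the genotypes, and the other 6 genes overlapped. These 4 of 10 genes stand beside 19.7% of the 22318 genes tested whose genotypes did not overlap, 10.4% lower and 9.3% higher in *Plxnb1-/-* cultures. With cutoffs of 0.05 for the adjusted p and 0.25 for the size of the log2 fold change, edgeR called 0 of the 10 genes, beside 0.0358% of all genes tested (0.0314% lower and 0.00448% higher). DESeq2 called 2 of them at the same cutoffs, *Trf* and *Cp*, beside 1.5% of all genes tested (0.811% lower and 0.69% higher). DESeq2 gave no adjusted p to 7358 of these genes, *Heph* among them, and its calls are 2.24% of the 14960 others. Because the set was chosen on this contrast, nothing is read from these shares. In all, 5 of the 10 genes had a log2 fold change below 0 and 5 above, with a median of −0.0019, or 0.03 over the 9 genes other than *Trf*. The median over all genes tested was 0.0050.

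*Trf* encodes transferrin, the carrier that brings ferric iron to cells. It measured 84.0, 57.9, and 93.5 CPM in WT against 35.7, 39.2, and 39.4 CPM in *Plxnb1-/-* cultures. The lowest WT culture, replicate 2, still lay above the highest *Plxnb1-/-* culture, and the WT cultures were far more spread than the *Plxnb1-/-* cultures. The means were 78.5 ± 18.4 CPM in WT against 38.1 ± 2.09 CPM in *Plxnb1-/-* cells (SD, n = 3), so that the *Plxnb1-/-* mean was 48.5% of the WT mean. This is a log2 fold change of −1.04 (SE 0.15), which lay between −1.22 (without WT replicate 2) and −0.90 (without WT replicate 3) as each culture was left out. Fewer cells of a type and less RNA per cell cannot be told apart in these bulk samples.

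*Tfrc*, the receptor that takes up iron-loaded transferrin, did not separate the genotypes. It measured 90.5, 91.3, and 85.3 CPM in WT against 109, 84.7, and 92.2 CPM in *Plxnb1-/-* cultures. *Plxnb1-/-* replicate 1 was the highest of all 6 cultures, while replicate 2 of the same genotype was the lowest. Its log2 fold change of 0.10 (SE 0.08) became −0.01 without *Plxnb1-/-* replicate 1, so the sign rested on that culture. Within a library, the ratio of *Trf* counts to *Tfrc* counts was 0.928, 0.635, and 1.095 in WT against 0.328, 0.462, and 0.427 in *Plxnb1-/-* cultures. This ratio was lower in every *Plxnb1-/-* culture than in any WT culture. It holds the *Trf* counts on which the set was chosen, so it restates the lower *Trf* and adds no separate observation.

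*Steap3*, which reduces ferric iron in the endosome, measured 12.6, 13.1, and 12.6 CPM in WT against 12.6, 15.2, and 17.02 CPM in *Plxnb1-/-* cultures. Replicate 1 of *Plxnb1-/-* sat at the level of the WT cultures, and the other two were above all of them. The log2 fold change was 0.22 (SE 0.10), with a range from 0.12 to 0.33 as each culture was left out in turn. *Slc11a2*, the transporter known as DMT1 that passes ferrous iron into the cytosol, measured 56.6, 53.8, and 55.3 CPM in WT against 54.9, 56.8, and 57.3 CPM in *Plxnb1-/-* cultures. Its cultures were interleaved, and the log2 fold change of 0.03 (SE 0.04) was smaller than its error.

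The ferritin subunits, which form the shell that stores iron, overlapped between genotypes. The heavy chain gene *Fth1* measured 472, 498, and 473 CPM in WT against 456, 482, and 475 CPM in *Plxnb1-/-* cultures. The light chain gene *Ftl1* measured 430, 476, and 415 CPM in WT against 405, 431, and 407 CPM in *Plxnb1-/-* cultures. For each subunit WT replicate 2 was the highest culture and *Plxnb1-/-* replicate 1 the lowest. The log2 fold changes were −0.03 (SE 0.04) for *Fth1* and −0.09 (SE 0.06) for *Ftl1*, and without WT replicate 2 they shrank to −0.0024 and −0.03. The ratio of *Fth1* counts to *Ftl1* counts was 1.09 ± 0.0467 in WT and 1.14 ± 0.0257 in *Plxnb1-/-* cells (SD, n = 3), with WT between 1.05 and 1.14 and *Plxnb1-/-* between 1.12 and 1.17. The counts of *Ftl1* carry an uncertainty of their own, since its exons overlap a microRNA gene on the same strand and an unclassified transcript on the opposite strand. These neighbours, Gm22133 and Gm10252, had 46106 and 64858 counts over the 6 libraries, against 175945 for *Ftl1*, so reads of this locus appear under several names. A near copy of *Ftl1*, Ftl1-ps1 on chromosome 13, had 4056 counts, or 2.31% of those of *Ftl1*.

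*Slc40a1* encodes ferroportin, the exporter of cellular iron, and was scarce in these cultures. The WT cultures had 1.78, 2.15, and 1.79 CPM, from 114, 126, and 127 counts. The *Plxnb1-/-* cultures had 1.18, 1.38, and 1.14 CPM, from 92, 100, and 79 counts. All *Plxnb1-/-* cultures lay below all WT cultures, with means of 1.91 ± 0.211 CPM in WT against 1.23 ± 0.129 CPM in *Plxnb1-/-* cells (SD, n = 3). The log2 fold change was −0.63 (SE 0.15) and ran from −0.72 to −0.53 as each culture was left out.

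The ferroxidase genes *Cp* and *Heph* were higher in every *Plxnb1-/-* culture than in any WT culture, and edgeR called neither. *Hephl1*, listed with the ferroxidases in the wider iron list, had means of 0.0416 CPM in WT and 0.0092 CPM in *Plxnb1-/-* cultures. It was too scarce to be tested. *Cp* encodes ceruloplasmin, a copper enzyme that oxidizes iron as it leaves the cell, and it measured 10.9, 12.7, and 11.7 CPM in WT against 14.7, 14.0, and 18.1 CPM in *Plxnb1-/-* cultures. The genotypes did not overlap, and *Plxnb1-/-* replicate 3 stood above the rest. The means were 11.7 ± 0.894 CPM in WT against 15.6 ± 2.22 CPM in *Plxnb1-/-* cells (SD, n = 3), a log2 fold change of 0.41 (SE 0.10) that was 0.29 without *Plxnb1-/-* replicate 3. *Heph* encodes hephaestin, the membrane relative of ceruloplasmin, and it measured 0.875, 0.786, and 0.833 CPM in WT against 1.16, 1.05, and 1.23 CPM in *Plxnb1-/-* cultures. Again the genotypes did not overlap, although no culture had more than 91 counts of *Heph* and WT replicate 2 had 46. The log2 fold change of *Heph* was 0.46 (SE 0.16), between 0.41 and 0.52 as each culture was left out. The exons of *Cp* share 108 bases with *Hps3* on the opposite strand, and the strand setting of the counting was not given in the sources used here. Those of *Heph* share 29 bases with *Hsf3*, which had 0 counts, also on the opposite strand. The same holds for 402 exonic bases of *Slc11a2* and Gm5475, which had 318 counts over the 6 libraries.

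*Hmox1*, the inducible enzyme that opens heme and frees its iron, measured 77.9, 84.7, and 72.5 CPM in WT against 72.7, 75.4, and 75.4 CPM in *Plxnb1-/-* cultures. The *Plxnb1-/-* cultures fell inside the WT range. Their mean differed from WT by a log2 fold change of −0.07 (SE 0.06), which lay between −0.13 (without WT replicate 3) and −0.01 (without WT replicate 2) as each culture was left out.

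**Figure D1:**
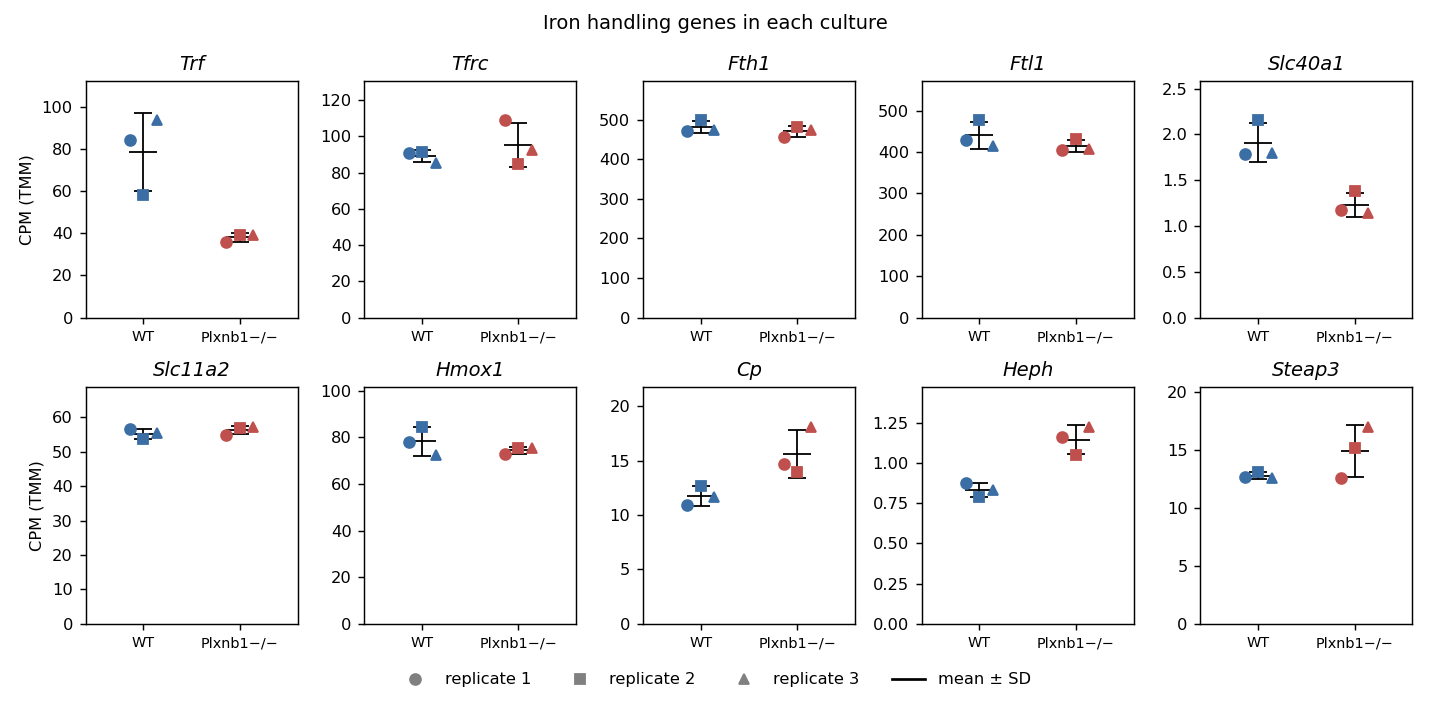
Level of each of the 10 iron handling genes in CPM after TMM scaling (vertical axis, from 0) in WT and *Plxnb1-/-* cultures, with each point 1 culture and black bars the mean ± SD of 3 cultures. The *Plxnb1-/-* points of *Trf* (35.7 to 39.4 CPM) and *Slc40a1* (1.14 to 1.38 CPM) lie below all WT points, those of *Cp* and *Heph* above them, and the other 6 genes overlap.

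Levels were compared between genes per kilobase of exon, on counts from which duplicate reads had been removed, and the effect of that removal on abundant short genes was not tested. In WT cells *Ftl1* was the most abundant at 329 ± 23.8 CPM per kb, followed by *Fth1* at 139 ± 4.25, *Hmox1* at 44.7 ± 3.49, and *Trf* at 23.6 ± 5.54 CPM per kb (SD, n = 3). *Tfrc* at 14.4 ± 0.520 and *Slc11a2* at 8.70 ± 0.224 CPM per kb came next. The lowest levels were those of *Steap3* at 2.23 ± 0.0534, *Cp* at 1.23 ± 0.0934, *Slc40a1* at 0.212 ± 0.0234, and *Heph* at 0.109 ± 0.00582 CPM per kb. Storage genes thus led, and the exporter and *Heph* came last. Over the ranges of all 6 cultures, neighbours in this order did not overlap except *Trf* with *Tfrc* and *Slc40a1* with *Heph*. These same pairs changed places in *Plxnb1-/-* cells, where *Trf* stood at 11.5 ± 0.628 below *Tfrc* at 15.4 ± 1.99 CPM per kb, and *Slc40a1* at 0.137 ± 0.0144 below *Heph* at 0.150 ± 0.0118 CPM per kb (SD, n = 3). With the longest transcript as the length, *Slc40a1* stayed above *Heph* in *Plxnb1-/-* cells, and *Cp* moved above *Steap3* in each genotype.

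An RNA feature shared by some of these genes is the iron responsive element, a hairpin bound by iron regulatory proteins, which blocks translation from a 5′ UTR and protects the mRNA from a 3′ UTR when iron is scarce. The hairpin was searched on the sense strand of protein-coding GENCODE vM21 transcripts of GRCm38 as a bulged C, 5 bases, the loop CAGTGN with N not G, and 5 bases that pair with the first 5, G with T pairs included. It was found in a UTR of 122 of 21842 genes (0.559%) and in 4 of the 10 iron genes, *Fth1*, *Ftl1*, *Slc40a1*, and *Tfrc*. They are shown because the same letters sit at opposite ends of genes for storage or export and for uptake, with the bulged C and the loop in capitals. The match in *Fth1* lies in the 5′ UTR at chr19:9982733-9982759 on the plus strand, that in *Ftl1* in the 5′ UTR at chr7:45459780-45459806 on the minus strand, and that in *Slc40a1* in the 5′ UTR at chr1:45925466-45925492 on the minus strand. *Tfrc* has 4 matches in its 3′ UTR on the plus strand of chromosome 16, at chr16:32631220-32631246, chr16:32631599-32631625, chr16:32631664-32631690, and chr16:32631711-32631737, listed in this order.
*Fth1*: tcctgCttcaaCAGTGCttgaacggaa
*Ftl1*: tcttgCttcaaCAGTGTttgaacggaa
*Slc40a1*: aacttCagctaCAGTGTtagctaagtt
*Tfrc*, match 1: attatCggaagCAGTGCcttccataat
*Tfrc*, match 2: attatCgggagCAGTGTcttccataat
*Tfrc*, match 3: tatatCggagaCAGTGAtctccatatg
*Tfrc*, match 4: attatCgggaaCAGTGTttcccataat
A match is a description of the letters. No such match was found in the UTRs of the other 6 genes. The search allowed only this 1 form of the hairpin, so it cannot show that a gene without a match lacks an element. Of the genes with a match, *Slc40a1* separated the genotypes in mRNA level and *Fth1*, *Ftl1*, and *Tfrc* did not, and their translation was not measured.

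The wider pathway was taken from a list of 83 other iron genes by role, of which 75 were tested. edgeR and DESeq2 each called 0 of them, 10 (13.3%) had an unadjusted p below 0.05 in edgeR's test, and 13.7% of all genes tested did. Of the 75, 37 were lower and 38 higher in *Plxnb1-/-* cultures, with a median log2 fold change of 0.0029. The genotypes did not overlap in 16 (21.3%), 10 lower and 6 higher, close to the 19.7% of all genes tested (10.4% lower and 9.3% higher). The lowest adjusted p of the list was 0.273 by the quasi-likelihood test of edgeR.

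In the hepcidin axis, 6 of 8 genes tested were lower and 2 higher, beside 48.5% of all genes tested that were lower. The genotypes did not overlap in 3 of the 8 (37.5%), 2 lower and 1 higher, beside 19.7% of all genes tested (10.4% lower and 9.3% higher). An unadjusted p below 0.05 in edgeR's test was found for 3 of the 8, beside 13.7% of all genes tested. *Bmp6*, a ligand known to raise hepcidin in the liver, measured 22.4, 41.0, and 27.3 CPM in WT against 18.9, 19.9, and 17.6 CPM in *Plxnb1-/-* cultures. All *Plxnb1-/-* cultures were below the WT cultures, of which replicate 2 stood far above the others. Its log2 fold change was −0.68 (SE 0.19, adjusted p = 0.273 by the quasi-likelihood test of edgeR), and of the alternatives run, edgeR called it only with no filter on low counts. *Smad6*, an inhibitor of BMP signaling, had a log2 fold change of 0.27 (SE 0.08). Hepcidin itself (*Hamp*) and *Hamp2* were too scarce to be tested.

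Among 11 partners of the transferrin receptor and of endosomal uptake, 5 were lower and 6 higher. *Steap1* measured 12.9, 18.2, and 13.1 CPM in WT against 12.6, 9.99, and 11.6 CPM in *Plxnb1-/-* cultures, with a log2 fold change of −0.36 (SE 0.14). Its genotypes did not overlap, yet *Plxnb1-/-* replicate 1 lay close to the lower WT cultures, and its direction was opposite to that of *Steap3*. The other transferrin receptor, *Tfr2*, overlapped, with a log2 fold change of −0.27 (SE 0.26). Of the transferrin relatives, *Ltf* (0.33, SE 0.24) and *Meltf* (−0.04, SE 0.87) were tested but stayed below 1 CPM in every culture, and the values in brackets are log2 fold changes.

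The 3 tested genes listed under iron regulatory proteins moved little in mRNA level, and their proteins were not measured. Log2 fold changes were 0.06 (SE 0.06) for *Fbxl5*, which marks IRP2 for decay, and 0.02 (SE 0.05) for *Ireb2*, which encodes IRP2. The 4 tested genes of iron uptake without transferrin overlapped, among them *Slc22a17* (0.12, SE 0.07) and *Slc39a14* (0.04, SE 0.05). The genotypes did not overlap in the 3 tested genes of ferritin turnover and iron chaperones, as in 19.7% of all genes tested, but the steps were small and none of the 3 had an unadjusted p below 0.05 in edgeR's test. *Ncoa4*, the receptor that sends ferritin to the lysosome, had a log2 fold change of 0.09 (SE 0.04), and the chaperone *Pcbp2* −0.08 (SE 0.05). The copper transporters that supply the ferroxidases, *Slc31a1* (−0.07, SE 0.05) and *Atp7a* (−0.04, SE 0.05), overlapped.

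For heme, 7 of 11 genes of uptake, breakdown, and export were lower and 4 higher, and the genotypes overlapped in all 11, whereas they did not in 19.7% of all genes tested. The exporter *Abcg2* had the largest log2 fold change among those of at least 1 CPM, −0.20 (SE 0.10), followed by *Slc46a1* at −0.09 (SE 0.09). In heme synthesis, 5 of 9 genes were lower and 4 higher. *Cpox*, coproporphyrinogen oxidase, measured 25.7, 26.1, and 25.2 CPM in WT against 23.6, 20.8, and 21.5 CPM in *Plxnb1-/-* cultures, a log2 fold change of −0.22 (SE 0.06), whereas *Uros* had 0.12 (SE 0.07). Of the 9, only *Cpox* had genotypes that did not overlap (11.1%), beside 19.7% of all genes tested.

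Mitochondrial iron genes were split into 5 lower and 5 higher, with log2 fold changes of −0.20 (SE 0.06) for the iron-sulfur cluster gene *Glrx5* and −0.15 (SE 0.08) for the mitochondrial iron importer *Slc25a37*. Of 12 antioxidant and ferroptosis genes, 4 were lower and 8 higher, and the genotypes did not overlap in 5 of the 12, 1 lower and 4 higher, beside 19.7% of all genes tested (10.4% lower and 9.3% higher). The cystine transporter *Slc7a11* measured 18.02, 23.1, and 19.1 CPM in WT against 16.2, 15.3, and 17.6 CPM in *Plxnb1-/-* cultures, with a log2 fold change of −0.29 (SE 0.10). The quinone reductase *Nqo1* had 0.27 (SE 0.11).

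**Figure D2:**
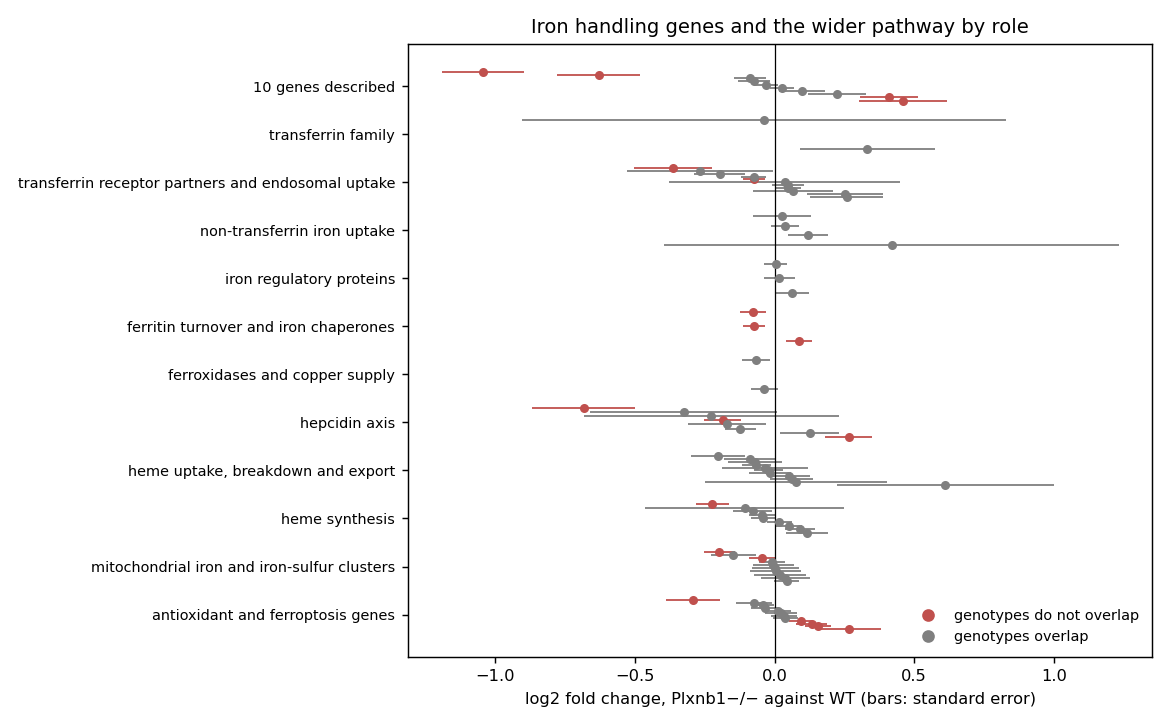
Log2 fold change of *Plxnb1-/-* against WT cultures (horizontal axis, bars the standard error) for the 10 genes described and for 75 other tested iron genes by role, each point 1 gene, with genes whose genotypes do not overlap in red. Points of most roles lie near 0, with *Trf* at −1.04 and *Slc40a1* at −0.63 to the left in the top row.

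*Trf* is the only gene of the 10 on chromosome 9, the chromosome of *Plxnb1*. It lies on the minus strand from 103204001 to 103230444, with 5.89 Mb between the lower coordinates of the 2 genes. Of 18 other genes tested within 1 Mb of *Trf*, 11 were lower and 7 higher in *Plxnb1-/-* cultures, with a median log2 fold change of −0.08. edgeR and DESeq2 each called 0 of these 18, and 5 (27.8%) had an unadjusted p below 0.05 in edgeR's test, beside 13.7% of all genes tested. The genotypes did not overlap in 5 (27.8%), all lower in *Plxnb1-/-* cultures, beside 19.7% of all genes tested (10.4% lower).

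The nearest tested gene is *Srprb*, a subunit of the receptor for the signal recognition particle, on the same strand from 103188032 to 103202137. In this gene the levels were 123, 123, and 131 CPM in WT against 111, 110, and 103 CPM in *Plxnb1-/-* cultures. Its cultures were tight and apart, with a log2 fold change of −0.22 (SE 0.05, adjusted p = 0.264 by the quasi-likelihood test of edgeR and 0.0144 from DESeq2), which is below the cutoff on the fold change. A read-through gene, Gm20425, is annotated across *Srprb* and *Trf* and shares 2108 exonic bases with *Trf*. No count was available for Gm20425, and whether reads of such a transcript counted for *Trf* was not given in the sources used here.

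*Slco2a1*, a prostaglandin transporter that starts at 102988712, measured 86.5, 157, and 115 CPM in WT against 73.8, 78.5, and 58.0 CPM in *Plxnb1-/-* cultures. The *Plxnb1-/-* cultures lay below the WT cultures, but WT replicate 2 was here the highest culture, where for *Trf* it was the lowest of its genotype. The log2 fold change of *Slco2a1* was −0.77 (SE 0.19). The other genes without overlap were *Ryk* (−0.11), *Gm28305* (−0.18), and *Dnajc13* (−0.08). Overlapping genes with log2 fold changes between −0.20 and 0.14 included *Cep63*, *Anapc13*, *Amotl2*, *Rab6b*, *Topbp1*, *Cdv3*, *Acad11*, and *Ackr4*, and the scarce genes *Bfsp2* (−2.59, SE 0.93), *Tmem108* (0.32), and *Gm37200* (0.22) stayed below 1 CPM.

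**Figure D3:**
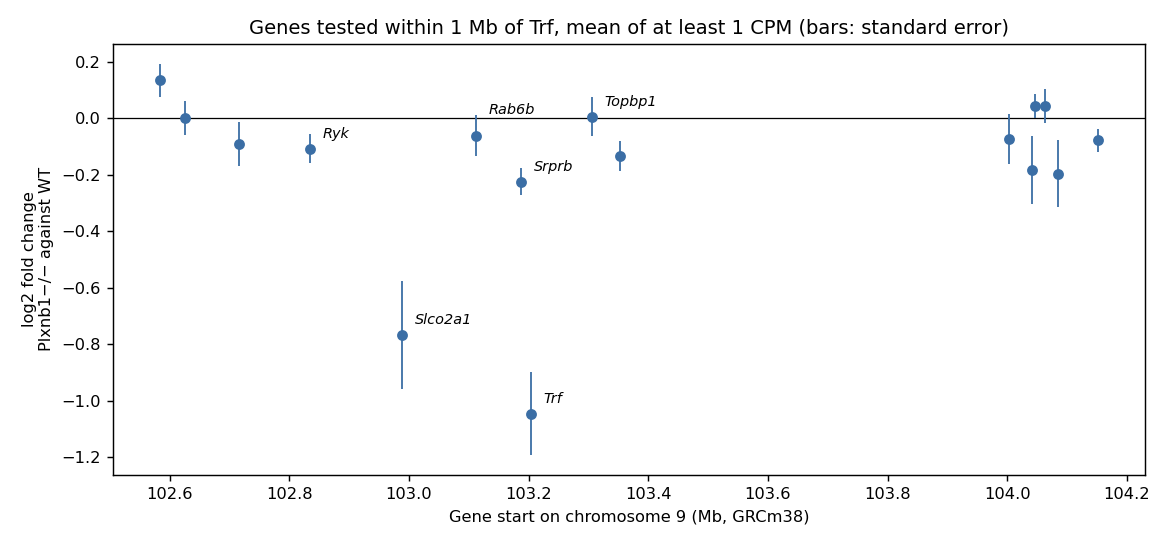
Log2 fold change of *Plxnb1-/-* against WT cultures (vertical axis, bars the standard error) by the start of the gene on chromosome 9 in Mb of GRCm38, for genes tested within 1 Mb of *Trf* with a mean of at least 1 CPM. *Trf* (−1.04) and *Slco2a1* (−0.77) lie below the other genes, which stay between −0.22 and 0.14.

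Genes most like *Trf* were ranked by Pearson's r of log2(CPM + 0.01) over the 6 cultures among 14991 genes of at least 1 CPM. The r values describe cultures that also differ in genotype and library. *Parp3* came first at r = 0.996 and measured 87.7, 73.4, and 92.8 CPM in WT against 56.9, 60.4, and 63.1 CPM in *Plxnb1-/-* cultures. It shared with *Trf* the low WT replicate 2 and the low *Plxnb1-/-* replicate 1. The others were *Gm6365* (r = 0.991), *Gm11175* (0.988), *Gm9768* (0.988), and *Gm28959* (0.987). *Parp3* and *Gm28959* also lie on chromosome 9, starting at 106470322 and 106452181, between *Trf* and *Plxnb1*. Among the others of the 10 genes described, r with *Trf* was highest for *Slc40a1* (0.77) and lowest for *Cp* (−0.83) and *Heph* (−0.82). Tested genes of the wider iron list with a mean of at least 1 CPM were among those ranked, and none was among the 5 named.

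Markers of cell types were read in the same cultures. All 12 SC markers were detected, among them *Sox10* at 486 CPM in WT against 550 CPM in *Plxnb1-/-* cells, and 11 of 12 were higher in *Plxnb1-/-* cultures. Their summed level was 3516, 2998, and 3567 CPM in WT against 3623, 4039, and 4123 CPM in *Plxnb1-/-* cultures. The 10 fibroblast markers summed to 11192, 14337, and 11798 CPM in WT against 10168, 10640, and 10251 CPM in *Plxnb1-/-* cultures, with *Col1a1* the most abundant at 6220 and 5058 CPM, and 9 of 10 were lower. WT replicate 2, the lowest WT culture for *Trf*, had the least SC marker and the most fibroblast marker signal of the 6 cultures. Every *Plxnb1-/-* culture had more of the former and less of the latter than any WT culture.

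The 6 mural markers, led by *Acta2*, summed to 1858, 2483, and 2059 CPM in WT against 1808, 1803, and 1676 CPM in *Plxnb1-/-* cultures, and 4 of 6 were lower. The 10 macrophage and leukocyte markers were all higher, led by *Csf1r* at 14.0 and 16.5 CPM, and summed to 37.8, 36.8, and 33.6 CPM in WT against 45.1, 44.9, and 38.7 CPM in *Plxnb1-/-* cultures. The 9 neuron markers, led by *Tubb3*, summed to 171, 163, and 177 CPM in WT against 179, 185, and 209 CPM in *Plxnb1-/-* cultures, and all were higher. For all 3 lists the sums of the genotypes did not overlap. *Tubb3* alone averaged 138 CPM in WT and 149 CPM in *Plxnb1-/-* cultures. The genotypes did not overlap in 3 of the 9 neuron markers, beside 19.7% of all genes tested. The 5 satellite glia markers, led by *Kcnj10*, were all higher too, with sums of 884 to 1048 CPM in WT and 1080 to 1086 CPM in *Plxnb1-/-* cultures, again without overlap. *Kcnj10* alone averaged 704 CPM in WT and 787 CPM in *Plxnb1-/-* cultures.

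Endothelial markers (6, led by *Cdh5*) summed to between 60.6 and 81.4 CPM in WT and between 63.9 and 69.3 CPM in *Plxnb1-/-* cultures, and overlapped. *Cdh5* alone made up 59.9 and 57.6 CPM of these sums on average, and 5 of the 6 were lower, with a median log2 fold change of −0.32. Melanocyte markers (5, led by *Mitf*) summed to between 9.19 and 9.62 CPM in WT and between 9.68 and 10.4 CPM in *Plxnb1-/-* cultures. Oligodendrocyte markers (8, led by *Sox8*, with *Olig2* at 0) summed to between 2.56 and 4.48 CPM in WT and between 4.61 and 6.14 CPM in *Plxnb1-/-* cultures. For each list every *Plxnb1-/-* sum was above every WT sum. Single genes made up most of these sums, *Mitf* with means of 7.24 CPM in WT and 7.38 CPM in *Plxnb1-/-* cultures and *Sox8* with 2.66 and 3.99 CPM. Neither gene alone separated the genotypes. Only 3 of the 5 melanocyte and 2 of the 8 oligodendrocyte markers were tested, and the others were too scarce. Of 6 erythroid markers, *Hba-a1*, *Hbb-bs*, and *Hbb-bt* had 0 counts in all 6 libraries, and the list, led by *Alas2*, summed to at most 0.266 CPM, so red cell RNA was near absent beside the iron genes. Of the 64 markers tested, edgeR called 0, 28 (43.8%) had an unadjusted p below 0.05 in its test beside 13.7% of all genes tested, and DESeq2 called 3 (4.69%), *Col1a1*, *Acta2*, and *Cx3cr1*, beside 1.5% of all genes tested. The part of these differences in cell type markers in the levels of *Trf*, *Slc40a1*, *Cp*, and *Heph* was not tested.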

How the data were processed

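The values used are counts that the authors deposited without normalization, 1 per gene and library. Per the labels and the study's methods, they are exon counts of GENCODE vM25 genes made by featureCounts on mm10 (GRCm38). The alignments came from Bowtie2 2.4.1, which does not span introns, after adapter removal by Trim Galore 0.6.5, and SAMtools 1.10 had taken out duplicates. The kit keeps the strand, but the strand setting of the counting was not given in the sources used here. Nor was the treatment of reads that overlap exons of several genes. The deposited FPKM values were not used.

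Of 55401 identifiers, 55141 matched GENCODE vM21 without the version. The members and lists were chosen with earlier results of these data known. The filter asked for 2 counts or more in 5 libraries or more, and the 22318 genes left were fitted with edgeR 4.0.16 (TMM, quasi-likelihood test, genotype only, R 4.3.3) and adjusted by Benjamini-Hochberg over all of them. DESeq2 1.42.0 was an alternative, and both were tested on simulated data. Other genes named were the 2 with the largest log2 fold change per iron role (mean of at least 1 CPM), all genes tested within 1 Mb of *Trf*, the 5 most like *Trf*, and each marker list's most abundant gene and markers at 0, except some genes not reported here, and *Sox10* was named afterwards for its list. *Ltf*, *Meltf*, *Hamp*, *Hamp2*, *Hephl1*, the markers that DESeq2 called, and genes sharing exons or sequence with an iron gene were added after their values were seen. Standard errors come from the fold change and edgeR's F statistic. Tables were made with pandas 2.3.3.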

Additional observations from a re-analysis of the deposited data

How the results depend on the processing

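The alternatives were DESeq2's size factors, upper-quartile factors, DESeq2, no filter on low counts, filterByExpr, no cutoff on the fold change, the replicate block, each culture left out in turn, and, chosen after seeing the data, edgeR's newer quasi-likelihood estimate. Across these, 9 of the 10 iron genes kept the sign of their log2 fold change, the exception being *Tfrc*. *Trf* lay between −1.22 (without WT replicate 2) and −0.90 (without WT replicate 3). The 8 genes called by edgeR became 335 with DESeq2, 296 with no filter on low counts, and between 4 and 25 with a culture left out, 25 without WT replicate 2, 5 without *Plxnb1-/-* replicate 1, and 4 without *Plxnb1-/-* replicate 2 or 3. Calls among the 10 iron genes went from 0 to 2 with DESeq2 and to 2 with no filter (*Trf* and *Cp* in each), and lay between 0 and 1 with a culture left out, where *Trf* was called without WT replicate 2. These calls stand beside 335 of 22318 genes tested with DESeq2, 296 of 31191 with no filter, and 25 of 22318 without WT replicate 2. Because the 10 genes were chosen on this contrast, nothing is read from these counts. Calls in the wider iron list went from 0 to 1 with no filter (*Bmp6*), and were 0 with each culture left out. The causes were not tested. The level of *Trf* in WT, 23.6 CPM per kb, became 30.5 with the longest transcript as the length, which is shorter than the union of exons.

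With the replicate block edgeR called 5 genes, all among the 8, and none of the iron genes. The deviations of cultures with the same number had r = −0.04, 0.05, and 0.13 for numbers 1, 2, and 3, so the numbers were not taken to pair the samples. Depth limits *Heph* and *Slc40a1* most, with at most 127 counts in a library.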
